A study of Mus musculus with 16 samples.

Results

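The genes described here are 9 genes of one-carbon and homocysteine metabolism in mouse kidney, namely Folr1, Mthfd1, Shmt1, Bhmt, Mat2a, Ahcy, Cbs, Cth and Gatm. They were taken by symbol from the gene count table, which holds 57186 genes, and each symbol matched 1 gene. All 9 were among the 25408 genes with at least 100 counts summed over the libraries, the genes that were tested.

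One-carbon metabolism carries single carbon units on folate and hands them to homocysteine, which is remethylated to methionine either by the vitamin B12-dependent methionine synthase or by betaine-homocysteine methyltransferase. Methionine becomes S-adenosylmethionine, the methyl donor of the cell, and the S-adenosylhomocysteine left after each methyl transfer is split back to homocysteine. Homocysteine can also leave the cycle through transsulfuration to cysteine, and the kidney tubule is a major site of folate recovery, homocysteine clearance and the first step of creatine synthesis.

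RNA sequencing libraries had been made from whole kidneys of 16 male mice on a C57BL/6J background, 4 in each of 4 groups, to ask what vitamin B12 changes in early diabetic kidney disease. Every mouse was Elmo1H/H, homozygous for an allele that raises expression of Elmo1, so there was no group with normal Elmo1 expression. The non-diabetic groups were Ins2+/+, without (ND_C) or with vitamin B12 (ND_B12), and the diabetic groups were Ins2Akita/+, without (D_C) or with vitamin B12 (D_B12). The Akita allele makes proinsulin misfold in pancreatic beta cells, so that diabetes comes from loss of insulin and not from insulin resistance. Vitamin B12 was given in the drinking water at 10 mg per kg body weight per day from 8 weeks of age. The sample labels give a treatment of 16 weeks, whereas the methods of the study place the collection of kidneys at 16 weeks of age, and the files do not settle this. The labels call the 4 libraries of a group biological replicates.

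The libraries held between 65271308 and 91771136 counts, and kidney tubule markers were abundant in all of them (the summed normalized count of 6 markers of the early proximal tubule lay between 848056 and 1114039). The group labels met 2 difficulties. First, group means in a supplementary table of the study, compared over 158 genes, were matched by sets of 4 libraries in which 5 libraries carried the same group name as in the labels and 11 carried another. The median absolute log2 difference of these sets from the means of that table was 0.000125 to 0.000204. For the labelled sets it was 0.0365 (ND_C), 0.0891 (ND_B12), 0.257 (D_C) and 0.262 (D_B12). The 4 libraries labelled D_B12 were matched to the group named D_C there. D_C 1 (replicate 1 of D_C) and ND_B12 4 were placed on the other side of the diabetes comparison. The groups below follow the labels, and the diabetes comparisons are given with and without these 2 libraries. Within each genotype the 2 assignments also differ in which libraries had vitamin B12. D_C 2, D_C 3 and D_C 4 were matched to the group named D_B12, ND_C 3 to ND_B12 and ND_B12 1 to ND_C. The diabetes comparisons without and with vitamin B12 therefore depend on the labels, as the vitamin B12 comparisons do. Leaving out D_C 1 and ND_B12 4 does not change this, and the files do not settle it. Second, the library names carry 10 dates of unstated meaning, of which 1 was shared by diabetic and non-diabetic libraries, so that date and diabetes are nearly confounded. D_C and D_B12 shared 0 dates, and each date of D_B12 was later in the year than any date of D_C. Within diabetic kidneys, date and vitamin B12 therefore cannot be told apart.

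Near-identical copies of Ahcy and Bhmt share sequence with them, and reads of 50 bases cannot always be assigned between them. Ahcy (ENSMUSG00000027597.16; GRCm39, minus strand, chr2:154901230-154916422), the enzyme that hydrolyses S-adenosylhomocysteine, differed from Ahcyl at 4 of 1296 coding bases, and 89.3% of its 50-base coding windows also occurred in Ahcyl. Bhmt (ENSMUSG00000074768.7; minus strand, chr13:93753183-93774469), the betaine-dependent methyltransferase, differed from Bhmt1b at 4 of 1221 coding bases and from the pseudogene Bhmt-ps1 at 12 of 1219 aligned bases. The stretches below, read from the GENCODE transcripts, are the 90 coding bases with most differences between the copies (bases 385 to 474 of Ahcy, bases 550 to 639 of Bhmt), and capitals mark each position at which the sequences differ.
Ahcy: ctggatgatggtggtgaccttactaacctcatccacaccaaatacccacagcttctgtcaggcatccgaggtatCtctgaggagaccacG
Ahcyl: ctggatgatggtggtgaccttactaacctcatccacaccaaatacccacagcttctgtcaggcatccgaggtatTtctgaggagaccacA
Bhmt: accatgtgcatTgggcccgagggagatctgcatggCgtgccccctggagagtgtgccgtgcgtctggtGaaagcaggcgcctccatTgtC
Bhmt1b: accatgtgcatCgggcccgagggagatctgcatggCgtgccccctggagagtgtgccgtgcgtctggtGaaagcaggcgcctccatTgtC
Bhmt-ps1: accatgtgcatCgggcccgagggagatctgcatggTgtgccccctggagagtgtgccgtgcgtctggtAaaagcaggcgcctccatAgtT
Only 2 positions separate the Ahcy stretches, and a single position separates Bhmt from Bhmt1b in theirs. The counts of the copies moved with those of the members. Across the 16 libraries the ratio of the normalized count of Ahcy to that of Ahcyl stayed between 1.63 and 1.75, and the ratio of Bhmt to Bhmt1b lay between 2.08 and 3.41. Counting every other gene, 95.2% of the Ahcy windows and 91.3% of the Bhmt windows were shared, in each case with 4 genes. Values of Ahcy and Bhmt are therefore uncertain as to the copy. They are given below also with the copies named here added, which are not all the genes that share windows. Of the coding windows of Mat2a, 19.9% occurred in another gene, of Shmt1 5.13%, of Mthfd1 2.93% and of Folr1 1.40%, while those of Cbs, Cth and Gatm were found in no other gene.

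**Figure D1:**
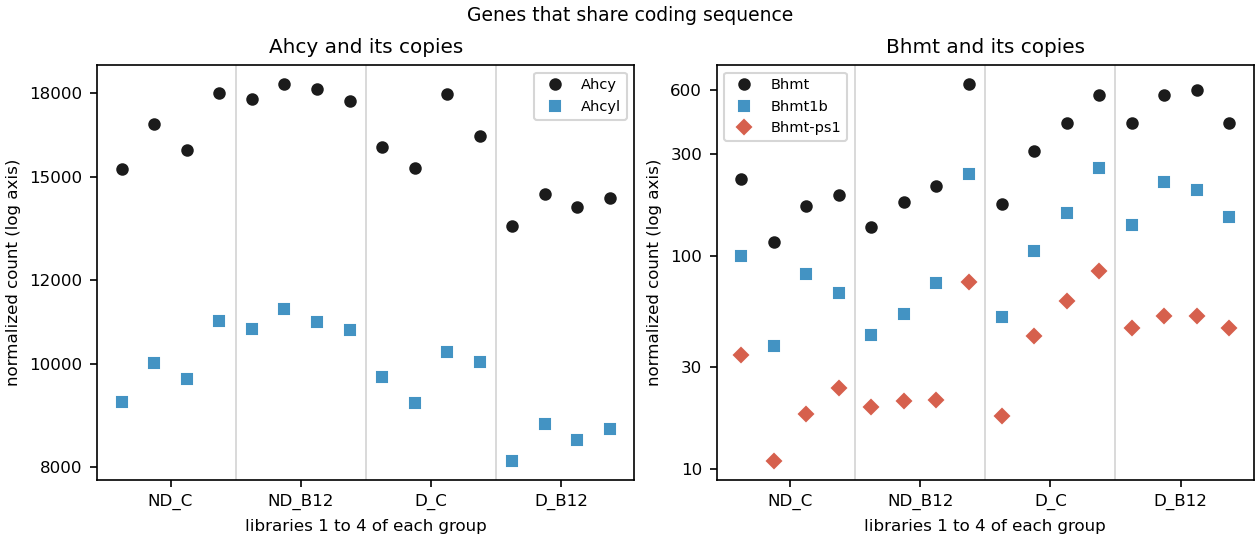
Normalized counts (log axis) of Ahcy with Ahcyl, and of Bhmt with Bhmt1b and Bhmt-ps1, in each of the 16 libraries, ordered by group. The Ahcy and Ahcyl points run in parallel, with both lowest in the 4 libraries labelled D_B12, and the 3 Bhmt sequences rise and fall together, with ND_B12 4 far above the rest of its group.

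The members spanned more than 2 orders of magnitude in level. On the scale of normalized counts per kilobase of transcript, Gatm led in ND_C at 20265 ± 2098 (SD, n = 4), followed by Folr1 at 14773 ± 410 and Mat2a at 7832 ± 344. Ahcy (6538 ± 470), Mthfd1 (5884 ± 139) and Cth (5260 ± 183) came next. Cbs (1896 ± 284), Shmt1 (1320 ± 69.8) and Bhmt (70.3 ± 18.9) were lowest. The 4 libraries of ND_C did not overlap between any 2 neighbours in this order, although Ahcy and Mthfd1 came close (lowest Ahcy 6044, highest Mthfd1 6013).

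**Figure D2:**
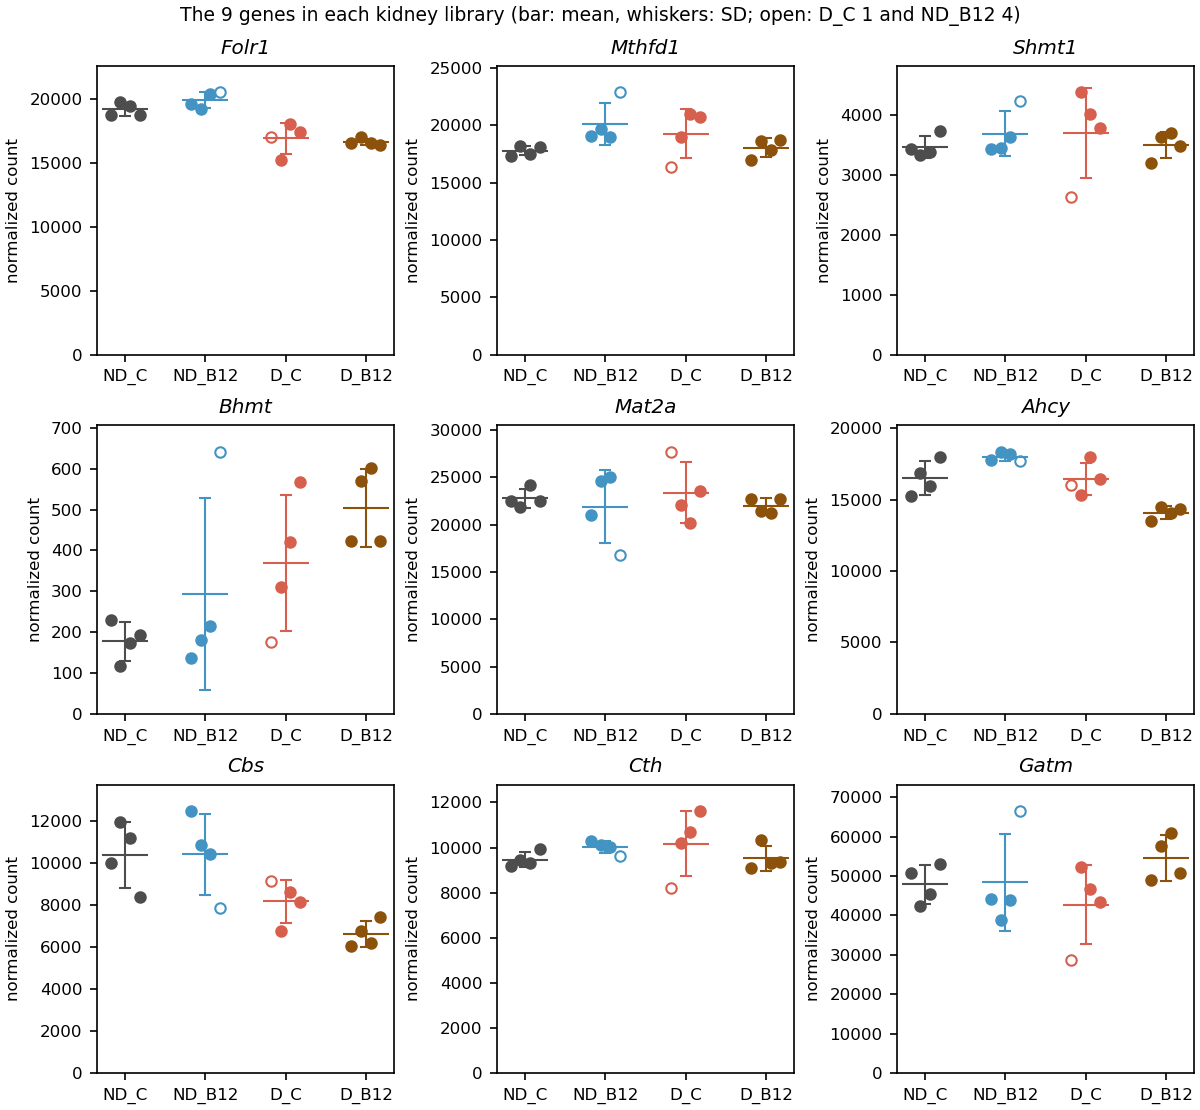
Normalized counts of the 9 genes in each library, in 1 panel a gene with the axis starting at 0, with a horizontal line at the group mean, whiskers of 1 SD and open symbols for D_C 1 and ND_B12 4. Folr1 is lower in all 8 diabetic libraries than in any non-diabetic one, and Ahcy sits between 13495 and 14472 in the 4 libraries labelled D_B12.

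Averaged over the groups without and with vitamin B12, 3 of the 9 members were lower in diabetic kidneys and none was higher: Folr1, Cbs and Ahcy (edgeR quasi-likelihood test, adjusted p below 0.05). The same rule called 767 of the genes tested, or 3.02%, of which 2.16% as lower and 0.862% as higher. At an unadjusted p below 0.05 it was 4 of 9 members and 19.4% of genes, and DESeq2 called the same number of members, 3, and 7.23% of genes. The median log2 fold change was 0.0030 over the members and 0.0072 over all genes tested. Bhmt had the largest difference, in the other direction, and did not pass. Fewer cells of a type and less RNA per cell cannot be told apart in whole-kidney libraries.

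Folr1 encodes folate receptor alpha, which takes folate back up from the tubule lumen (GRCm39, minus strand, chr7:101507537-101520014). Its normalized counts were 18769, 19841, 19493 and 18787 in ND_C and 19628, 19253, 20410 and 20550 in ND_B12. They were 17079, 15260, 18095 and 17447 in D_C and 16555, 17035, 16594 and 16458 in D_B12. Every diabetic library was thus below every non-diabetic one, a separation seen in 0.386% of the genes tested (9.44% without vitamin B12 alone, 4 libraries against 4). The log2 fold change of diabetes averaged over treatments was −0.22 (SE 0.038, adjusted p = 0.0121). It was −0.18 without vitamin B12 (SE 0.054, adjusted p = 0.0890) and −0.26 with it (SE 0.054, adjusted p = 0.0418). Without D_C 1 and ND_B12 4 the averaged value for Folr1 was −0.21 (adjusted p = 0.00420), and the 7 diabetic libraries (15260 to 18095) still lay below the 7 non-diabetic ones (18769 to 20410), a separation that 2.72% of genes tested had on these 14 libraries in either direction. The averaged call was kept whichever single library was left out. With vitamin B12, the call for Folr1 was kept only when ND_C 4, D_C 1, D_C 2 or D_C 3 was left out, and the adjusted p rose to between 0.0534 and 0.137 without any 1 of the other 12. With the date as a covariate the averaged value was −0.29 (adjusted p = 0.221).

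Mthfd1 and Shmt1 work in the cytosolic folate cycle, Mthfd1 (plus strand, chr12:76301984-76366588) as the enzyme that interconverts the folate-bound carbon units and Shmt1 (minus strand, chr11:60661185-60708167) as the hydroxymethyltransferase that loads a carbon from serine. Neither passed the test for diabetes. Normalized counts of Shmt1 spanned 3332 to 3745 (ND_C) and 3446 to 4238 (ND_B12) in non-diabetic kidneys, and 2630 to 4383 (D_C) and 3207 to 3702 (D_B12) in diabetic ones. Both the lowest and the highest library were labelled D_C, and the averaged log2 fold change of Shmt1 was 0.0073 (95% confidence interval −0.17 to 0.18). Mthfd1 had normalized counts of 17327, 18172, 17525 and 18109 in ND_C and of 19048, 19673, 19002 and 22851 in ND_B12. In the diabetic groups Mthfd1 had 16329, 18978, 20933 and 20752 in D_C and 16948, 18651, 17860 and 18691 in D_B12. With vitamin B12 all diabetic libraries were lower than the non-diabetic ones (log2 fold change −0.16, adjusted p = 0.304), a separation that 11.7% of genes tested had in either direction, whereas without it the groups overlapped (0.11, adjusted p = 0.471). Once D_C 1 and ND_B12 4 were set aside, Mthfd1 was higher in the diabetic kidneys without vitamin B12 (0.18, adjusted p = 0.0397), in a fit that called 8.57% of the genes tested. Shmt1 was just short of the threshold there (0.22, adjusted p = 0.0505).

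Bhmt, Mat2a and Ahcy belong to the methionine cycle. Bhmt had normalized counts of 230, 116, 172 and 194 in ND_C and of 138, 180, 214 and 642 in ND_B12. In the diabetic groups Bhmt had 176, 310, 420 and 569 in D_C and 422, 570, 601 and 423 in D_B12. The highest library, ND_B12 4, was non-diabetic by its label, and the lowest diabetic one was D_C 1. Over all 16 libraries the averaged log2 fold change of Bhmt was 0.91 (SE 0.30, adjusted p = 0.102). It was 1.05 without vitamin B12 (SE 0.42, adjusted p = 0.198) and 0.77 with it (SE 0.42, adjusted p = 0.362). These 2 libraries decided the result for Bhmt. Without both, the 7 non-diabetic libraries (116 to 230) lay below the 7 diabetic ones (310 to 601), as 2.72% of genes tested were separated in either direction, and Bhmt rose by 1.40 on the log2 scale (adjusted p = 0.000378) in a fit that called 10.2% of the genes tested. Without ND_B12 4 alone the averaged value was 1.28 (adjusted p = 0.00636), and without D_C 1 alone it was 1.03 (adjusted p = 0.0427). With the date as a covariate the value for Bhmt was −0.0021. Adding the counts of its copies gave 0.91 (adjusted p = 0.122).

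Mat2a (minus strand, chr6:72409779-72416684) encodes the catalytic subunit that makes S-adenosylmethionine outside the liver. Its level differed little between groups, with a mean of 22769 ± 1000 in ND_C and of 21889 ± 3848 in ND_B12, beside 23365 ± 3225 in D_C and 22018 ± 800 in D_B12 (SD, n = 4). The averaged log2 fold change of diabetes was 0.022, with a 95% confidence interval from −0.14 to 0.19. D_C 1 was the highest library at 27722 and ND_B12 4 the lowest at 16795. The annotation gives 3 transcripts of Mat2a the type retained intron, and these held between 2.24% and 4.53% of its counts per library. The difference in their share passed in none of 4 comparisons between groups (exact permutation test, two-sided, p = 0.314, 0.114, 0.2 and 0.657, adjusted p = 0.419, 0.4, 0.4 and 0.657, with 0.0286 the smallest possible p). This share leaves out Mat2a-202, typed as protein coding, which keeps as exon a 585-base intron of Mat2a-201. Mat2a-202 held between 50.8% and 82.1% of the Mat2a counts per library, and its share was not tested in this way.

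Ahcy had normalized counts of 15254, 16838, 15920 and 17992 in ND_C and of 17773, 18356, 18166 and 17712 in ND_B12. It had 15997, 15306, 17957 and 16407 in D_C and 13495, 14472, 14068 and 14342 in D_B12. The 4 libraries labelled D_B12 were below each of the 12 others, which held for 94 of the genes tested (0.37%). Ahcy was lower in diabetic kidneys with vitamin B12, by a log2 fold change of −0.36 (SE 0.060, adjusted p = 0.0282), whereas without it the value was −0.0076 (95% confidence interval −0.14 to 0.12). The average of both was −0.18 (SE 0.043, adjusted p = 0.0337). Without D_C 1 and ND_B12 4 the values for Ahcy were −0.36 with vitamin B12 (adjusted p = 0.0105) and −0.18 averaged (adjusted p = 0.0238). The call with vitamin B12 was lost when ND_B12 2, ND_B12 3 or any 1 of the 4 libraries of D_B12 was left out (adjusted p 0.0565 to 0.104). The averaged call was kept when ND_C 1, ND_B12 4, D_C 1, D_C 3, D_B12 2 or D_B12 4 was left out, and lost without any 1 of the other 10 (adjusted p 0.0526 to 0.0753). With the date as a covariate the value of Ahcy with vitamin B12 was −0.55 (adjusted p = 0.0696) and the average was −0.33 (adjusted p = 0.188). With Ahcyl added to Ahcy the same 2 values were −0.36 (adjusted p = 0.0291) and −0.19 (adjusted p = 0.0298).

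Cbs and Cth carry out the 2 steps of transsulfuration, Cbs (minus strand, chr17:31827868-31856646) joining homocysteine to serine and Cth (minus strand, chr3:157599868-157630739) cleaving the product to cysteine. Cbs had normalized counts of 10019, 11968, 11198 and 8391 in ND_C and of 12497, 10886, 10419 and 7863 in ND_B12. It had 9169, 6779, 8626 and 8153 in D_C and 6075, 6759, 6177 and 7441 in D_B12. With vitamin B12 the groups did not overlap, as for 11.7% of genes tested, and the lowest non-diabetic value was that of ND_B12 4. There Cbs was lower in diabetic kidneys by a log2 fold change of −0.66 (SE 0.13, adjusted p = 0.0418). Without vitamin B12 the groups overlapped (−0.34, SE 0.13, adjusted p = 0.174), and the average was −0.50 (SE 0.094, adjusted p = 0.0157). Without D_C 1 and ND_B12 4 the values for Cbs were −0.41 without vitamin B12 (adjusted p = 0.0484), −0.77 with it (adjusted p = 0.00459) and −0.59 averaged (adjusted p = 0.000853). The averaged call was kept whichever single library was left out, but the call with vitamin B12 was kept only when ND_C 4, ND_B12 4, D_C 1 or D_C 2 was left out (adjusted p 0.0521 to 0.141 without any 1 of the other 12). With the date as a covariate the averaged value was −0.54 (adjusted p = 0.365).

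Cth did not follow Cbs. It had 9159, 9426, 9334 and 9926 normalized counts in ND_C and 10301, 10133, 10033 and 9627 in ND_B12. It had 8186, 10190, 10687 and 11628 in D_C and 9087, 10341, 9315 and 9373 in D_B12. The lowest and the highest value both came from D_C, and the averaged log2 fold change of Cth was 0.014 (95% confidence interval −0.11 to 0.14). Without D_C 1 and ND_B12 4, Cth was higher in diabetic kidneys without vitamin B12 by 0.19 (adjusted p = 0.0489).

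Gatm (minus strand, chr2:122424948-122441799) encodes the mitochondrial amidinotransferase that makes guanidinoacetate, the precursor of creatine, whose methylation uses S-adenosylmethionine. Its normalized counts were 50849, 42314, 45352 and 53134 in ND_C and 44177, 38789, 43970 and 66565 in ND_B12. They were 28655, 52226, 46811 and 43286 in D_C and 48914, 57668, 61041 and 50722 in D_B12. D_C 1 was the lowest library and ND_B12 4 the highest, and the averaged log2 fold change of Gatm was 0.0030 (95% confidence interval −0.26 to 0.26). With vitamin B12 it was 0.17 over all libraries (adjusted p = 0.665) and 0.37 without these 2 libraries (adjusted p = 0.0635).

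By comparison, without vitamin B12 no member passed over all 16 libraries, against 1.66% of genes tested (0.937% higher, 0.728% lower). At an unadjusted p below 0.05 it was 3 of 9 members, against 18.6% of genes. DESeq2 called 1 member there, Folr1 (adjusted p = 0.0157), and 6.44% of genes. With vitamin B12, 3 members passed, all lower (Folr1, Cbs and Ahcy), against 0.823% of genes tested and 0.563% called lower (0.26% higher). At an unadjusted p below 0.05 it was the same number of members, 3, against 17% of genes, and DESeq2 called 3 members and 4.68% of genes. All 3 edgeR calls with vitamin B12 were lost under upper-quartile normalization (adjusted p = 0.0678 for Folr1, 0.0661 for Cbs and 0.0513 for Ahcy) and with the date as a covariate (0.181, 0.281 and 0.0696). In edgeR over all 16 libraries the interaction passed for none of the 3. It was −0.084 for Folr1 (adjusted p = 0.641), −0.31 for Cbs (adjusted p = 0.444) and −0.35 for Ahcy (adjusted p = 0.0800). A pass with vitamin B12 and none without it is therefore not read as a difference between them. D_C 1 or ND_B12 4 was the highest or lowest of the 16 libraries for 7 of the 9 members. How often this held over all genes tested was not counted, so it is not read as particular to the members. With D_C 1 and ND_B12 4 left out, 4 members passed without vitamin B12 (Bhmt, Mthfd1 and Cth higher, Cbs lower; 8.57% of genes), 4 with it (Bhmt higher; Folr1, Cbs and Ahcy lower; 2.8% of genes) and 4 averaged (the same directions; 10.2% of genes).

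**Figure D3:**
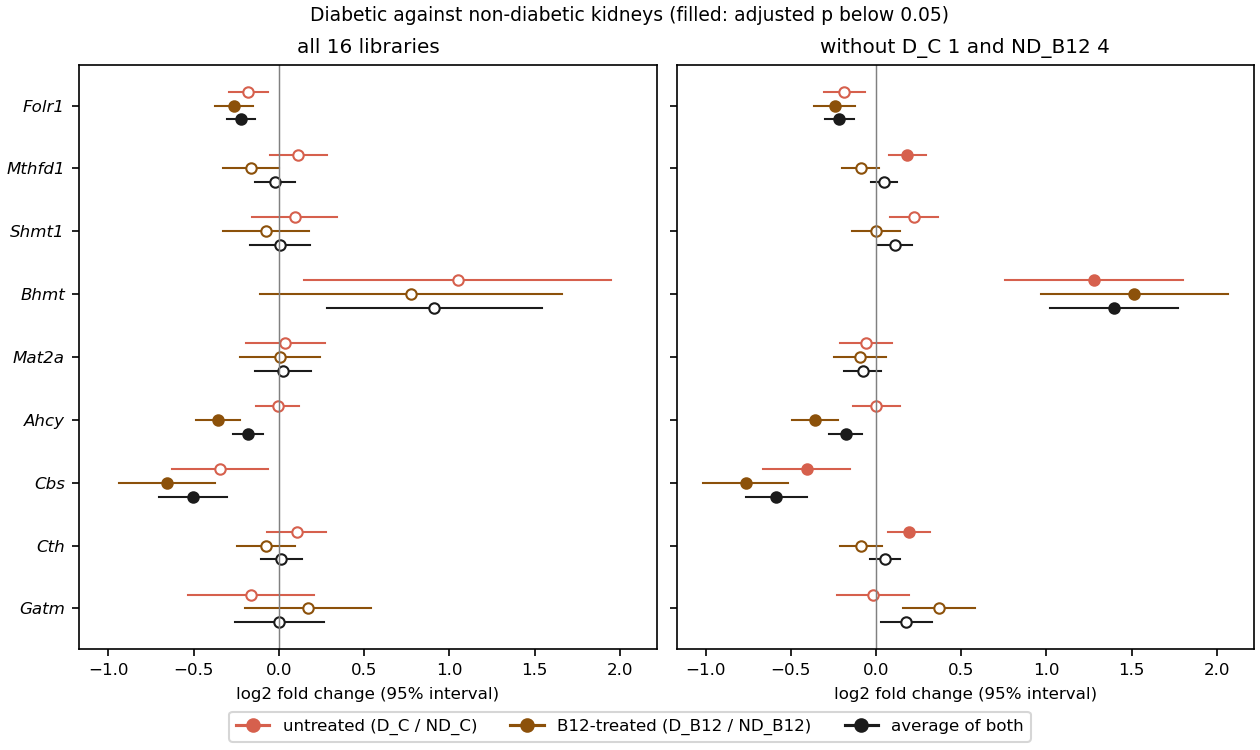
Log2 fold change of diabetes for the 9 genes, without vitamin B12, with it and averaged, with 95% confidence intervals from edgeR, for all 16 libraries and for the 14 left without D_C 1 and ND_B12 4; filled symbols have an adjusted p below 0.05. Folr1, Cbs and Ahcy lie left of 0 in the average, and the interval of Bhmt narrows around 1.40 without the 2 libraries.

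Markers of other cell types were measured beside these differences. Of 6 markers of the early proximal tubule, the segment in which Folr1 and Gatm are abundant, 1 fell in the average (Slc34a1, −0.25, adjusted p = 0.0178). The average called 3.02% of all genes tested. In non-diabetic kidneys the summed count of the 6 was 967834 to 1041744 (ND_C) and 994385 to 1114039 (ND_B12). In diabetic kidneys it was 848056 to 1066491 (D_C) and 898684 to 942007 (D_B12), lower in every library of D_B12 than in any non-diabetic one. Of 5 late proximal tubule markers none passed. Of 5 markers of liver, an organ rich in Bhmt and Cbs, 1 fell (Ttr), and the groups of their sum overlapped both without vitamin B12 (7903 to 11413 in ND_C, 5366 to 9571 in D_C) and with it (6556 to 10839 in ND_B12, 5318 to 6941 in D_B12). Among the 4 markers each of collecting duct principal cells, endothelium, macrophages and B and plasma cells, 1 passed, higher in the first 2 lists and lower in the others. No marker passed in the lists for thick ascending limb, distal convoluted tubule, intercalated cells, podocytes, T cells, adipocytes and adrenal gland, and no skeletal muscle marker reached the count minimum. Without vitamin B12, every diabetic sum was lower for distal convoluted tubule (57132 to 72308, against 75368 to 83622). The same held for B and plasma cells (240 to 846, against 888 to 3398). Every diabetic sum was higher for endothelium (18061 to 20816, against 14341 to 16249) and principal cells (17319 to 38347, against 10552 to 15005). With vitamin B12, B and plasma cells were lower (290 to 392, against 745 to 2515), and the others of these lists overlapped. Of single genes tested, 9.44% were separated in either direction without vitamin B12 and 11.7% with it. No such share was counted for summed lists. Thick ascending limb sums overlapped both without vitamin B12 (348017 to 408482 in ND_C, 315171 to 423748 in D_C) and with it. There they were 292765 to 427931 in ND_B12 and 243731 to 297203 in D_B12. The part of cell composition in the values of Folr1, Cbs and Ahcy was not tested.

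The vitamin B12 comparisons asked what supplementation changed within each genotype, and they rest on labels that the study's table of group means does not share. In diabetic kidneys, date and vitamin B12 also cannot be told apart. No member passed in either genotype. In non-diabetic kidneys edgeR called 0 genes (1937, or 7.62%, had an unadjusted p below 0.05), and DESeq2 called 6 (0.0236%). In diabetic kidneys edgeR called 0 genes (3468, or 13.6%, had an unadjusted p below 0.05), and DESeq2 called 670 (2.64%), Ahcy among them. For the interaction, the difference between these 2 effects, edgeR called 0 (4093, or 16.1%, had an unadjusted p below 0.05) and DESeq2 943 (3.71%), again with Ahcy. Without D_C 1 and ND_B12 4 edgeR called 0.87% of genes in diabetic kidneys and 0.35% for the interaction, and no member.

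Among the members Ahcy had the smallest p in diabetic kidneys and for the interaction. Its mean normalized count went from 16501 ± 1187 without to 18002 ± 310 with vitamin B12 in non-diabetic kidneys and from 16417 ± 1123 to 14094 ± 434 in diabetic ones (SD, n = 4). In diabetic kidneys all libraries with vitamin B12 were lower than those without, a separation found in 6.58% of genes tested (log2 fold change −0.22, SE 0.060, unadjusted p = 0.00225, adjusted p = 0.138). In non-diabetic kidneys the value for Ahcy was 0.13 (SE 0.060, adjusted p = 0.647). The interaction was −0.35 (SE 0.085, unadjusted p = 0.000853, adjusted p = 0.0800). DESeq2 put the effect in diabetic kidneys at an adjusted p of 0.0203 and the interaction at 0.00622. With the date as a covariate, edgeR put the interaction at −0.44 (adjusted p = 0.0249), in a fit that called 753 of 25408 genes tested. Without ND_C 4 the edgeR interaction for Ahcy was −0.39 (adjusted p = 0.0498). It did not pass without any 1 of the other 15 libraries (adjusted p up to 0.169). Of 24 alternative settings, 3 called the Ahcy interaction.

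Mthfd1 was higher in all 4 non-diabetic libraries with vitamin B12 than in those without, which 4.81% of genes tested shared in either direction (0.18, SE 0.078, adjusted p = 0.637). In diabetic kidneys the value for Mthfd1 was −0.092 (SE 0.078, adjusted p = 0.659), and the interaction was −0.28 (SE 0.11, adjusted p = 0.230). Cbs had a value of −0.31 in diabetic kidneys (SE 0.13, adjusted p = 0.322) and of 0.0070 in non-diabetic ones (95% confidence interval −0.27 to 0.29). Gatm had 0.35 in diabetic kidneys (SE 0.17, adjusted p = 0.389), and Bhmt 0.73 in non-diabetic kidneys (SE 0.43, adjusted p = 0.729), a value that was −0.010 without ND_B12 4 and D_C 1. Folr1 had the narrowest intervals, with values of 0.059 (95% confidence interval −0.055 to 0.17) and −0.025 (−0.14 to 0.089). Shmt1, Cth and Mat2a had intervals that spanned 0 in both genotypes over all 16 libraries.

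**Figure D4:**
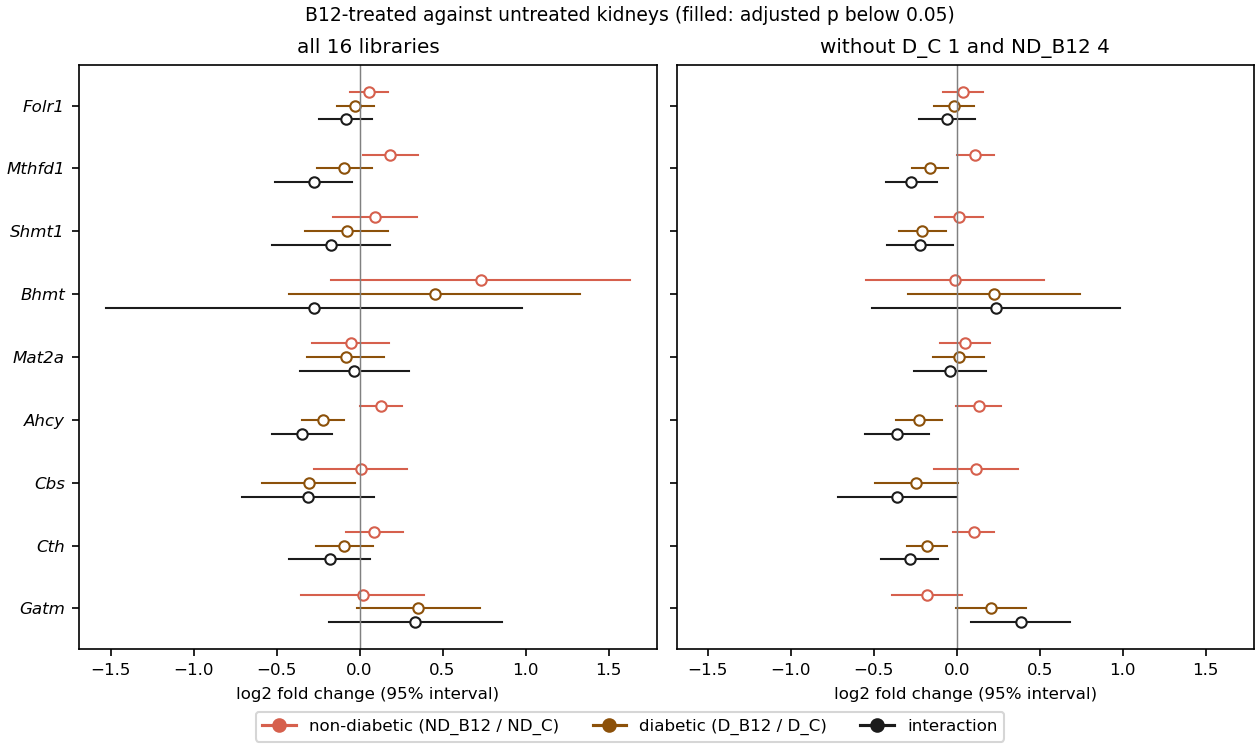
Log2 fold change of vitamin B12 for the 9 genes in non-diabetic kidneys, in diabetic kidneys, and the interaction, with 95% confidence intervals from edgeR, for all 16 libraries and without D_C 1 and ND_B12 4. No symbol is filled, since no adjusted p is below 0.05, and the interval of the Ahcy interaction (−0.53 to −0.17) lies farthest from 0 relative to its width.

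The other genes of the pathway comprised 63 genes, of which 62 were tested. In the averaged diabetes comparison 4 of the 62 were lower and 1 was higher, against 2.16% and 0.862% of all genes tested. Of these, Mpst, Tst, Inmt and Ftcd are described here. Mpst, which moves sulfur from mercaptopyruvate (log2 fold change −0.26, adjusted p = 0.0215), and Tst, a sulfurtransferase of sulfide disposal (−0.29, adjusted p = 0.0297), were lower. These 2 genes overlap on opposite strands, and as the strand setting of the counting is not given, their reads may not be separate. Apart from Cbs, no other gene listed for transsulfuration and cysteine use passed, and Cth was at 0.014. Inmt, a methyltransferase that turns S-adenosylmethionine into the substrate of Ahcy, was lower as well (−0.39, adjusted p = 0.0242). Ftcd, which breaks down histidine-derived formiminoglutamate onto folate, was higher (0.84, adjusted p = 0.0477), a call kept only without ND_C 4, ND_B12 4 or D_C 1 among the single libraries left out. Its normalized count was 3144 in ND_B12 4 and 1171 in D_C 1, the same pair that stood apart for Bhmt. Leaving out 1 library ended the call for Inmt in 7 of 16 cases, for Tst in 6 and for Mpst in 3. The median over the 62 genes was −0.015, against 0.0072 over all genes tested.

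**Figure D5:**
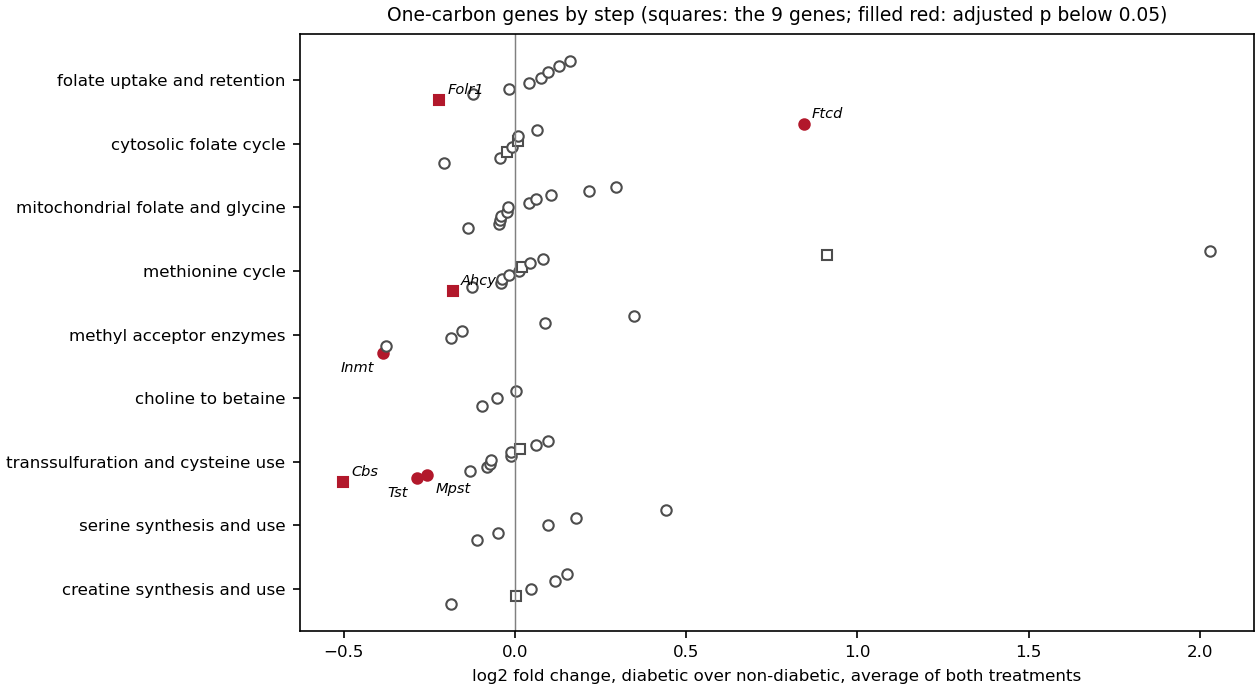
Log2 fold change of diabetes averaged over both treatments for the pathway genes reported here, in rows by metabolic step, with squares for the 9 genes and filled red symbols for an adjusted p below 0.05. The filled symbols below 0 are Folr1, Ahcy, Inmt, Cbs, Tst and Mpst, and Ftcd is the filled symbol above 0. The open circle near 2.03 is Mat1a, which had 0 counts in 2 libraries (adjusted p = 0.146).

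In the diabetes comparison with vitamin B12, 1 of the 62 other pathway genes passed, against 0.823% of all genes tested. Inmt was lower in the diabetic kidneys (log2 fold change −0.75, edgeR adjusted p = 0.0215), with a mean of 37893 ± 3090 in ND_B12 and 22582 ± 1176 in D_B12 (SD, n = 4). Inmt and Ahcy thus had their lowest group mean under the same label. Leaving out 1 library ended this call for Inmt in 6 of 16 cases.

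No pathway gene passed in the vitamin B12 comparisons. Those with the smallest p in non-diabetic kidneys were Dmgdh (0.22, adjusted p = 0.570), Inmt (0.35, adjusted p = 0.585) and Mthfd1l (0.76, adjusted p = 0.585). In diabetic kidneys Folr2, a folate receptor, had 0.90 (adjusted p = 0.109), and for the interaction Inmt had −0.73 (adjusted p = 0.0686). Mtr, the vitamin B12-dependent methionine synthase itself, had 0.29 in diabetic kidneys (adjusted p = 0.182).

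In the transcript counts edgeR called 0 of 66503 transcripts in each of the 6 comparisons, with between 4611 and 8057 at an unadjusted p below 0.05. Gatm, Ahcy, Cth, Shmt1 and Bhmt were each carried almost wholly by a single transcript. For Ahcy that transcript gave a log2 fold change of −0.40 for diabetes with vitamin B12 (adjusted p = 0.105). Folr1, Cbs, Mat2a and Mthfd1 were split over several. The split of Cbs was unstable, since its second transcript, Cbs-202, held between 1.80% and 71.9% of the counts of the gene from library to library, and no group difference of a Cbs transcript was read from it.

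The promoters of Cbs and Ahcy are shown because both genes were lower in diabetic kidneys and both sequences were at hand. They cover 250 bases before the annotated start, from RefSeq on GRCm38.p6, a different build from the gene positions above, and 7 of the 9 genes had an entry. Capitals mark the E-box CACGTG, the GC box GGGCGG and the CCAAT box, each searched on both strands. The Cbs window lies at chr17:31637206-31637455 on the minus strand and the Ahcy window at chr2:155074498-155074747 on the minus strand.
Cbs: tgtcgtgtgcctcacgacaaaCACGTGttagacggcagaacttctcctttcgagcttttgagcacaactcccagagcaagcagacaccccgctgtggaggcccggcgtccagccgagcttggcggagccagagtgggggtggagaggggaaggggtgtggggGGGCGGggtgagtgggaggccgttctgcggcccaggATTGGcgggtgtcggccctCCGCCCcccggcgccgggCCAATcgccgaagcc
Ahcy: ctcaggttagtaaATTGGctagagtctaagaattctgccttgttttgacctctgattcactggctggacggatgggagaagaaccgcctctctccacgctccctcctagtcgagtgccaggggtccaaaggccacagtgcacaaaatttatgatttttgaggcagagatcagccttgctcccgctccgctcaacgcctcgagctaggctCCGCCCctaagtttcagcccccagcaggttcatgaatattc
The Cbs window held 1 E-box, 2 GC boxes and 2 CCAAT boxes, and the Ahcy window held 1 GC box and 1 CCAAT box. Among 32851 promoters of this length, 6.02% held the E-box, 32.7% the GC box and 33.8% the CCAAT box.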

How the data were processed

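Kidney RNA of 16 mice had been sequenced from Watchmaker total RNA libraries as paired 50-base reads, processed with bcl2fastq 2.20.0, aligned with STAR to GRCm39 with GENCODE vM35, and assembled with StringTie. The authors deposited estimated counts per gene and per transcript as whole numbers, not normalized, and these counts were used as deposited. Whether counting used strand is not given in the sources used here.

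Genes whose counts summed to 100 or more were fitted with edgeR 4.0.16 in R 4.3.3 (TMM normalization, quasi-likelihood test, 1 mean per labelled group, all 16 libraries, two-sided, Benjamini-Hochberg adjustment over all genes tested, threshold 0.05). Normalized counts are counts divided by the median-of-ratios size factors of DESeq2 (0.804 to 1.18), and values are mean ± SD. Alternatives were DESeq2 1.42.0, upper-quartile normalization, other filters, the date in the library name as a covariate, a replicate block, only the groups compared, and leaving out libraries. In simulated data for the averaged diabetes comparison on 25099 genes, edgeR recovered 198 of 200 changed genes with 19 false calls, and DESeq2 199 with 62. The 200 changed genes differed by 1 or 2 log2 units. Recovery of differences as small as those of Folr1, Cbs and Ahcy was not tested. No 2 libraries agreed within sampling noise.

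The members and the gene lists were chosen with earlier results of these data known. Named are the 9 members, the pathway genes that passed (or, with fewer than 3, the 3 with the smallest p), the 2 genes most like each member over the libraries, and markers beside a result. Results for some pathway genes are not reported here. Coordinates are from GENCODE vM39, which matched 56630 gene IDs. Overlapping genes lie on the opposite strand of Ahcy, Bhmt, Folr1, Mat2a and Mthfd1, on the same strand of Cth, and on both for Shmt1.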

Additional observations from a re-analysis of the deposited data

Results flagged for a closer look

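Bhmt in ND_B12 4 had a normalized count of 642, against 138 to 214 in the other libraries labelled ND_B12, a gap that passed the critical value of Dixon's test for 4 samples. This was 1 of 36 combinations of a member and a group examined, and chance passes about 1 in 20. Mthfd1 moved in opposite directions with vitamin B12 in the 2 genotypes, higher in non-diabetic (0.18) and lower in diabetic kidneys (−0.092), with an interaction of −0.28 on the log2 scale (edgeR, unadjusted p = 0.0234, adjusted p = 0.230). The values of Ahcy were 0.13 and −0.22, with an interaction of −0.35 (edgeR, unadjusted p = 0.000853, adjusted p = 0.0800), which did not pass after adjustment over all genes tested.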

How the results depend on the processing

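The number of genes called moved most. For diabetes without vitamin B12 it was 423, and it was 1637 with DESeq2, 63 with no filter beyond 1 count, 2 with the date as a covariate, 242 with only the groups compared, and 2127 without D_C 1 and ND_B12 4. With vitamin B12 it was 209, and in the same order 1189, 35, 29, not moved by more than 1.5 times, and 695, with 18 under upper-quartile normalization. Averaged it was 767, and 1837, 427, 0 and 2531 with DESeq2, no filter, the date and without both libraries. For vitamin B12 in non-diabetic kidneys it was 0, and 6 with DESeq2. In diabetic kidneys it was 0, and 670 with DESeq2, 204 with the date, 1 with only the groups compared and 216 without both libraries. For the interaction it was 0, and 943, 753 and 87 with DESeq2, the date and without both libraries. Leaving out 1 library gave 0 to 1552, 0 to 441, 235 to 1700, 0 to 2, 0 to 69 and 0 to 266 genes in these 6 comparisons, with D_C 1 the library whose absence gave the highest number without vitamin B12, averaged, in diabetic kidneys and for the interaction. The cause was not tested.

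Of the 9 members, 0 were called without vitamin B12, and 1 with DESeq2 and 4 without both libraries. With vitamin B12 it was 3, and 0 under upper-quartile normalization, 1 with no filter and 0 with the date. Averaged it was 3, and 0 with the date. In diabetic kidneys it was 0, and 1 with DESeq2, and for the interaction 0, and 1 with DESeq2 or the date. Leaving out 1 library gave 0 to 3 with vitamin B12 and 0 to 1 for the interaction, and 0 to 1 member transcripts with vitamin B12.

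Values that changed sign were all uncalled. With the date as a covariate these were, for diabetes without vitamin B12, Mthfd1 −0.055, Shmt1 −0.087 and Cth −0.040; with it, Bhmt −0.37 and Gatm −0.17; averaged, Shmt1 −0.25, Bhmt −0.0021, Cth −0.19 and Gatm −0.26. For vitamin B12 they were Cbs −0.0019 and Gatm −0.050 in non-diabetic kidneys, Bhmt −0.25 and Mat2a 0.053 in diabetic ones, and Mat2a 0.067 for the interaction. Without both libraries they were Mat2a −0.058 and Ahcy 0.0024 without vitamin B12, Shmt1 0.0018 and Mat2a −0.096 with it, Mthfd1 0.046 and Mat2a −0.077 averaged, Bhmt −0.010, Mat2a 0.051 and Gatm −0.18 for vitamin B12 in non-diabetic kidneys, Mat2a 0.012 in diabetic ones and Bhmt 0.24 for the interaction. Upper-quartile normalization turned Cbs (−0.023) and Gatm (−0.015) in non-diabetic kidneys and Mat2a (0.016) for the interaction, and fitting only the groups compared turned Cbs (−0.0042) in non-diabetic kidneys.

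Leaving out 1 library turned these values. For diabetes without vitamin B12 they ranged from −0.059 to 0.039 for Ahcy, −0.067 to 0.098 for Mat2a and −0.0035 to 0.21 for Shmt1, and with it from −0.10 to 0.076 for Mat2a. Averaged, they ranged from −0.018 to 0.061 for Cth, −0.048 to 0.10 for Gatm, −0.032 to 0.058 for Mat2a, −0.042 to 0.012 for Mthfd1 and −0.034 to 0.075 for Shmt1. For vitamin B12 in non-diabetic kidneys they ranged from −0.0081 to 0.97 for Bhmt, −0.090 to 0.12 for Cbs, −0.18 to 0.11 for Gatm and −0.12 to 0.053 for Mat2a, in diabetic ones from −0.063 to 0.018 for Folr1, −0.14 to 0.025 for Mat2a and −0.19 to 0.024 for Shmt1, and for the interaction from −0.51 to 0.46 for Bhmt and −0.14 to 0.085 for Mat2a.

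Same-numbered libraries deviated together in 2 of 16 comparisons of same-numbered libraries (correlation above 0.1), and 6 of 16 correlated best with their own number, so the numbers do not pair the mice. With the replicate block the genes called were 269, 25, 478 and 147 for diabetes without vitamin B12, with it, averaged and for the interaction, no member was called with vitamin B12 (0; adjusted p 0.0518 for Ahcy, 0.0691 for Cbs and 0.0677 for Folr1), and the interaction of Bhmt became 0.076. Adding the copies, an alternative chosen after seeing the data, changed no call of Ahcy or Bhmt. Depth limits mainly Bhmt and its copies, whose counts were the lowest.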

Other observations

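The 2 genes whose library-scaled log2 counts, centred over the 16 libraries, ran closest to each member are given with the root mean square difference in log2 units. For Ahcy they were its copy Ahcyl (0.0229) and Nherf1 (0.0524), and for Bhmt its copies Bhmt1b (0.194) and Bhmt-ps1 (0.240). For Cbs they were Ivd (0.0927), a mitochondrial dehydrogenase of leucine breakdown, and Ces1f (0.106), a carboxylesterase. Folr1 was closest to Os9 (0.0537) and Ppt1 (0.0576), Mthfd1 to Nbr1 (0.0527) and Prkaa2 (0.0528), and Cth to Phb1 and Skp1 (both 0.0580). Mat2a was closest to Stk3 (0.101) and Zfp970 (0.103), Shmt1 to the unnamed models Gm17045 (0.0621) and Gm5456 (0.0622), and Gatm to Gm9790 (0.125) and Slc7a8 (0.132), an amino acid transporter of the proximal tubule. All these values share the same libraries and depth, and genes that vary little lie close to many others.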
